A study of Mus musculus with 27 samples.

Results

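The PI3K-related kinases are 6 very large proteins that share a kinase domain related to that of the lipid kinase PI3K. They were taken from the deposited table, which lists its 26264 gene symbols in lower case, as the rows atm, atr, mtor, prkdc, smg1 and trrap. The family was chosen by measured values, since it was proposed with earlier results for R55 and R33 against vehicle in these libraries in view. Differences of the drugs from vehicle are therefore given as a description. Where the fit over all genes gives a count of members past a p-value, it stands beside the share of all genes, and nothing is read from it. The differences between the drugs and between the effects in each hemisphere use the same libraries and are not independent of that choice. All 6 genes passed the filter on low values, a mean of at least 1 FPKM, as did 12976 genes in all. The unit, FPKM, divides the fragments of a gene by its length in kilobases and by the library's total on genes.

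RNA was measured in blocks of about 1 mm3 of cortex from female 5xFAD/C57BL6 mice at 16 weeks of age. Every mouse, vehicle controls included, carried the 5xFAD transgenes, driven by the neuronal Thy1 promoter, so no group here lacked the amyloid model. Mice received 500 nL of 10 mM R55 or R33, tool compounds that stabilise the retromer complex, or the vehicle of DMSO and cyclodextrin in saline, into the lateral parietal associative cortex of 1 hemisphere. Tissue was taken 24 h later from the injected and the contralateral hemisphere, as separate libraries. There were 4 vehicle, 5 R33 and 5 R55 mice and 27 libraries. Both hemispheres were used for 13 mice and the injected one alone for the R33 mouse AE. The study's methods state 6 mice per group.

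Libraries held 15932196 to 38077026 fragments on genes. All 10 neuronal markers and all 7 astrocyte and 7 oligodendrocyte markers were detected, with median summed neuronal levels of 6030 FPKM in vehicle, 6203 FPKM in R33 and 6009 FPKM in R55 libraries. Of 5 blood markers, 4 were listed at 0 in every library. The fifth, Alas2, an enzyme of haem synthesis, had means of 1.64 FPKM in vehicle, 2.88 FPKM in R33 and 3.08 FPKM in R55 mice (log2 difference of R55 from vehicle 0.55, SE 0.23), and the list summed to medians of 1.57, 2.02 and 3.31 FPKM in the same order. The 8 microglial markers summed to medians of 602 FPKM in vehicle, 609 FPKM in R33 and 701 FPKM in R55 libraries. Medians were 71.9, 72.8 and 64.2 FPKM for 6 endothelial markers and 66.7, 82.9 and 72.3 FPKM for 6 striatal markers, in the same order. The highest striatal sums were 234 FPKM in a vehicle library, 348 FPKM in an R33 library and 110 FPKM in an R55 library. The part of these markers in the results below was not tested. A pair of libraries stood apart in how their log2 values fell with gene length, by 0.23 per doubling of length in the injected hemisphere of R33 mouse AD and by 0.18 in the contralateral hemisphere of R55 mouse Q. The other 25 libraries lay between -0.061 and 0.065, and results that rest on AD or Q are given with and without them.

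Each kinase of the family has a distinct role. ATM responds to double-strand breaks in DNA, ATR to single-stranded DNA at stalled replication forks, and the product of Prkdc, the catalytic subunit of DNA-PK, acts in end joining of breaks. MTOR is the core of the growth-regulating complexes mTORC1 and mTORC2, with mTORC1 activated on the lysosome. SMG1 phosphorylates UPF1 in nonsense-mediated decay, the pathway that degrades transcripts with premature stop codons. TRRAP has lost the residues needed for catalysis and serves as a scaffold of histone acetyltransferase complexes. Neurons no longer divide but still repair DNA, and loss of ATM in humans causes ataxia with degeneration of the cerebellum.

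The 6 genes are encoded at separate places in the genome, and all are long. In GENCODE release M39 on GRCm39, the build the authors aligned to, Atm (ENSMUSG00000034218) lies on the minus strand of chromosome 9 from 53348097 to 53448236 with 64 exons in its canonical transcript. Atr (ENSMUSG00000032409) lies on the plus strand of the same chromosome from 95739650 to 95835263 with 47 exons. Prkdc (ENSMUSG00000022672) is on chromosome 16 from 15455698 to 15660099, plus strand, and has 86 exons. Mtor (ENSMUSG00000028991) is on chromosome 4 from 148533015 to 148642141, plus strand, with 58 exons. Smg1 (ENSMUSG00000030655) is on chromosome 7 from 117730527 to 117842893, minus strand, with 63 exons, and Trrap (ENSMUSG00000045482) is on chromosome 5 from 144704542 to 144796601, plus strand, with 71 exons. The lengths over which the authors counted them ran from 8074 bp for Atr to 15553 bp for Smg1, against a median of 3149 bp for tested genes. Only 39 tested genes were longer than Smg1 and 723 were longer than Atr.

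Sequences at the gene starts are shown so that features shared by the members, which the choice of genes did not use, can be seen. RefSeq sequences on GRCm38.p6 matched 5 of the 6 genes by symbol, and Prkdc had no entry. Each line gives the 100 bases just before the annotated start, 5′ to 3′ on the gene's own strand. Capitals mark a GC box (GGGCGG) or a CCAAT box (CCAAT) on either strand.
Atm, chr9:53536672-53536771, minus strand: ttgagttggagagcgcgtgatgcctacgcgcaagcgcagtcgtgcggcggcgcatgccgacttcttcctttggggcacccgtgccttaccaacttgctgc
Atr, chr9:95857497-95857596, plus strand: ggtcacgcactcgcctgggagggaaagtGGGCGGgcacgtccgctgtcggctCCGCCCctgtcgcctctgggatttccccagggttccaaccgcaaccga
Mtor, chr4:148448482-148448581, plus strand: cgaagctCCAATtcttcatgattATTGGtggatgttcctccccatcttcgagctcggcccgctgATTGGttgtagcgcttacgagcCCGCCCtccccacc
Smg1, chr7:118243638-118243737, minus strand: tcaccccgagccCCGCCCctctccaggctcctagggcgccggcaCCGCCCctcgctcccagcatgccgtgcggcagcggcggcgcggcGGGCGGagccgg
Trrap, chr5:144768694-144768793, plus strand: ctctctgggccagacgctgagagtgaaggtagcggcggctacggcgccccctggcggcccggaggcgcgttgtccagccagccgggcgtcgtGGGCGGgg

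Over the 250 bases before the start, all 5 held at least 1 GC box, from 1 in Atm and Trrap to 5 in Smg1, as did 32.7% of the 32851 RefSeq promoters. CCAAT was found 4 times in Mtor and once each in Atm and Smg1, against 33.9% of promoters with a match. An ETS core (CCGGAA, 12.03% of promoters) was found once in Mtor, and neither an E-box (CACGTG, 6.02%) nor a TATA box (TATAAA, 12.4%) was found in any of the 5. Both strands were searched, matches could overlap, and none of these motifs contains another. The GC content of these windows was 54.4 to 70.8%, against a median of 52.4%, and they held 15 to 26 CpG dinucleotides against a median of 6. A match describes letters only, and no motif was tied to a difference between samples.

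Mtor was the most abundant member per length and the DNA damage kinases the least. Over the 27 libraries Mtor averaged 13.3 FPKM, Trrap 8.89 FPKM, Smg1 5.75 FPKM, Atm 1.68 FPKM, Prkdc 1.38 FPKM and Atr 1.31 FPKM. Each of Mtor, Trrap and Smg1 was above the next in all 27 libraries, and Atm was above Prkdc in 25. Prkdc and Atr were not separated, with Prkdc the higher in 15 of 27 libraries and 8 of 14 mice. The SD over mouse means was 10.6% of the mean for Atr, 11.2% for Mtor, 11.8% for Atm, 14.5% for Prkdc, 14.6% for Smg1 and 15.7% for Trrap. Counts behind these values ran from 171 fragments for Atr in the library with the fewest to 6039 for Trrap. Counting error at the median count was 5.74% for Atr, 4.68% for Prkdc, 4.34% for Atm and 1.81 to 2.06% for the others, which covers counting only.

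**Figure D1:**
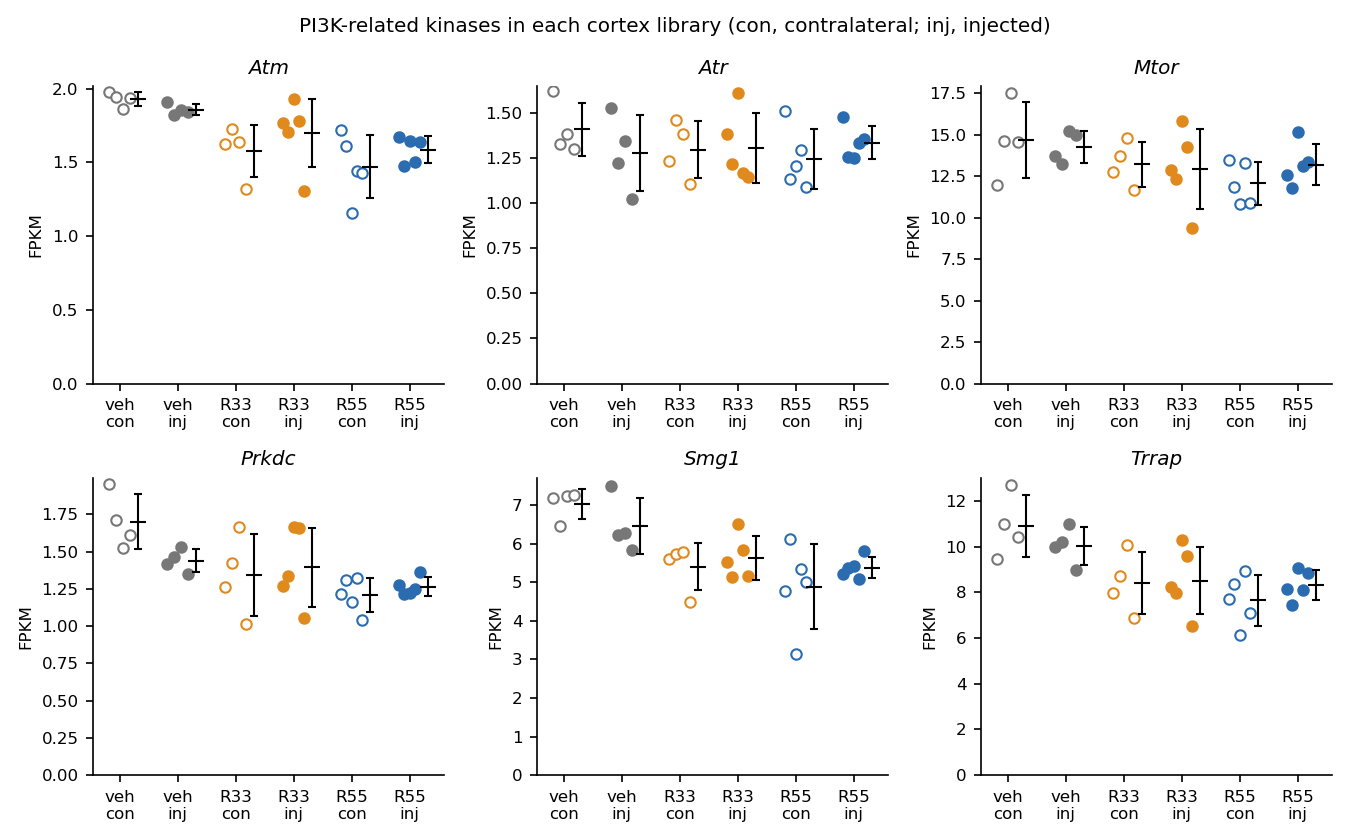
Level in FPKM of each kinase in the 27 libraries, by treatment (grey, vehicle; orange, R33; blue, R55) and hemisphere (open points, contralateral; filled points, injected), with mean and SD in black; each axis starts at 0. For Smg1 the vehicle libraries lie at 5.84 FPKM or above and the R55 libraries at 6.13 FPKM or below, with the lowest R55 point, 3.13 FPKM, from the contralateral hemisphere of mouse Q.

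How the family stood in drug-treated mice was the comparison by which it was proposed, so the values follow as a description. The mean of every member was lower after R55 than after vehicle, by 3.92% for Atr, 12.7% for Mtor, 19.2% for Atm, 21.2% for Prkdc, 23.7% for Trrap and 23.96% for Smg1. After R33 the means were lower by 3.80% for Atr, 10.3% for Mtor, 12.8% for Atm, 12.9% for Prkdc, 18.6% for Smg1 and 19.6% for Trrap. The same 4 vehicle mice serve both drugs. In this mixed tissue, fewer cells of a type and less RNA per cell cannot be told apart. Values below are means over the hemispheres of each mouse.

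Among the kinases of the DNA damage response, Atm had a narrow vehicle range of 1.94 FPKM in mouse J, 1.88 in M, 1.86 in L and 1.89 in AH. After R55 it measured 1.70 FPKM in mouse P, 1.54 in AA, 1.40 in Q, 1.47 in R and 1.53 in AB. After R33 it measured 1.70 FPKM in mouse K, 1.71 in AE, 1.83 in O, 1.71 in N and 1.31 in AD. All 10 drug-treated mice were below the lowest vehicle mouse, and group means were 1.89 ± 0.037 FPKM (SD, n = 4) for vehicle, 1.53 ± 0.11 FPKM (n = 5) for R55 and 1.65 ± 0.20 FPKM (n = 5) for R33.

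Prkdc levels in vehicle mice were 1.68 FPKM in J, 1.59 in M, 1.53 in L and 1.48 in AH. R55 mice were closely grouped, at 1.25 FPKM in P, 1.26 in AA, 1.19 in Q, 1.28 in R and 1.20 in AB. R33 mice spread widely, at 1.26 FPKM in K, 1.34 in AE, 1.54 in O, 1.66 in N and 1.03 in AD. Every R55 mouse was below every vehicle mouse, whereas R33 mice O and N lay within the vehicle range.

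Atr was the member whose groups overlapped most. It measured 1.57, 1.28, 1.36 and 1.16 FPKM in vehicle mice J, M, L and AH, and 1.49, 1.19, 1.23, 1.31 and 1.22 FPKM in R55 mice P, AA, Q, R and AB. In R33 mice K, AE, O, N and AD it measured 1.31, 1.22, 1.53, 1.27 and 1.13 FPKM. No R55 mouse and 1 R33 mouse, AD, lay below the lowest vehicle mouse.

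Mtor, the growth-regulating kinase, measured 12.8, 13.9, 16.4 and 14.8 FPKM in vehicle mice J, M, L and AH. It measured 13.0, 11.8, 13.0, 13.2 and 12.1 FPKM in R55 mice P, AA, Q, R and AB, and 12.8, 12.3, 14.8, 14.5 and 10.5 FPKM in R33 mice K, AE, O, N and AD. The groups overlapped: 2 of 5 R55 mice and 3 of 5 R33 mice were below the lowest vehicle mouse, which was J.

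For Smg1, the kinase of nonsense-mediated decay, vehicle mice measured 7.35 FPKM in J, 6.35 in M, 6.77 in L and 6.55 in AH. R55 mice measured 5.00 FPKM in P, 5.75 in AA, 4.28 in Q, 5.22 in R and 5.42 in AB. R33 mice measured 5.58 FPKM in K, 5.15 in AE, 6.13 in O, 5.81 in N and 4.83 in AD. As for Atm, all 10 drug-treated mice were below all 4 vehicle mice, and the means were 6.75 ± 0.43 FPKM for vehicle, 5.14 ± 0.55 FPKM for R55 and 5.50 ± 0.52 FPKM for R33 (SD, n = 4, 5 and 5).

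Trrap, the catalytically inactive scaffold, measured 9.73, 10.6, 11.8 and 9.71 FPKM in vehicle mice J, M, L and AH. After R55 it measured 7.94, 7.91, 7.59, 8.54 and 7.97 FPKM in mice P, AA, Q, R and AB, a span of less than 1 FPKM. After R33 it measured 8.10, 7.97, 9.51, 9.83 and 6.69 FPKM in mice K, AE, O, N and AD. All R55 mice and 4 of 5 R33 mice were below the lowest vehicle mouse, with N the exception.

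In the limma fit on log2(FPKM + 1), the difference of R55 from vehicle was -0.35 for Trrap (SE 0.081), -0.35 for Smg1 (SE 0.078), -0.20 for Prkdc (SE 0.059), -0.20 for Atm (SE 0.051), -0.18 for Mtor (SE 0.080) and -0.03 for Atr (SE 0.055). Adding 1 FPKM shrinks the changes of low genes: on recovered fragments with limma voom, Atm stood at -0.32 and Prkdc at -0.33. The members' median was -0.20, against 0.03 over all tested genes. At an adjusted p-value under 0.05, 0 of the 6 members were called, with 0.00771% of all tested genes called. At an unadjusted p-value under 0.05, 5 of 6 were lower, beside 3.74% of all tested genes. Every R55 mouse lay below every vehicle mouse for 4 of 6 members, beside 1.43% of all genes. The members were chosen with this contrast known, and nothing is read from these shares. With R33 mouse AD left out, which narrows the estimated spread without changing the R55 or vehicle libraries, Atm, Smg1 and Trrap were called along with 50 genes in all (0.385%). That fit, like the main one, takes the libraries of a mouse as separate samples. With the correlation within mice modelled, the smallest adjusted p-value of a member was 0.90 (limma), against 0.13 in the main fit. With 1 value per mouse it was 0.92. In both of those fits 4 of 6 were lower at an unadjusted p-value under 0.05, beside 258 and 232 of the 12976 tested genes.

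After R33 the differences were -0.28 for Trrap (SE 0.083), -0.25 for Smg1 (SE 0.080), -0.14 for Mtor (SE 0.082), -0.14 for Atm (SE 0.052), -0.12 for Prkdc (SE 0.061) and -0.03 for Atr (SE 0.057). Their median was -0.14, against 0.02 over all genes. Adjusted p-values called 0 of 6 members (0% of all genes), 3 of 6 were lower at an unadjusted p-value under 0.05 (2.68%), and R33 and vehicle mice did not overlap for 2 of 6 (0.378%). With 1 value per mouse, 2 of 6 were lower at an unadjusted p-value under 0.05, beside 167 of the 12976 tested genes. Mouse AD weighed on these values: without it the members ran from -0.20 to 0.01 with a median of -0.07. Leaving out both libraries that stood apart gave medians of -0.18 for R55 and -0.10 for R33.

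**Figure D2:**
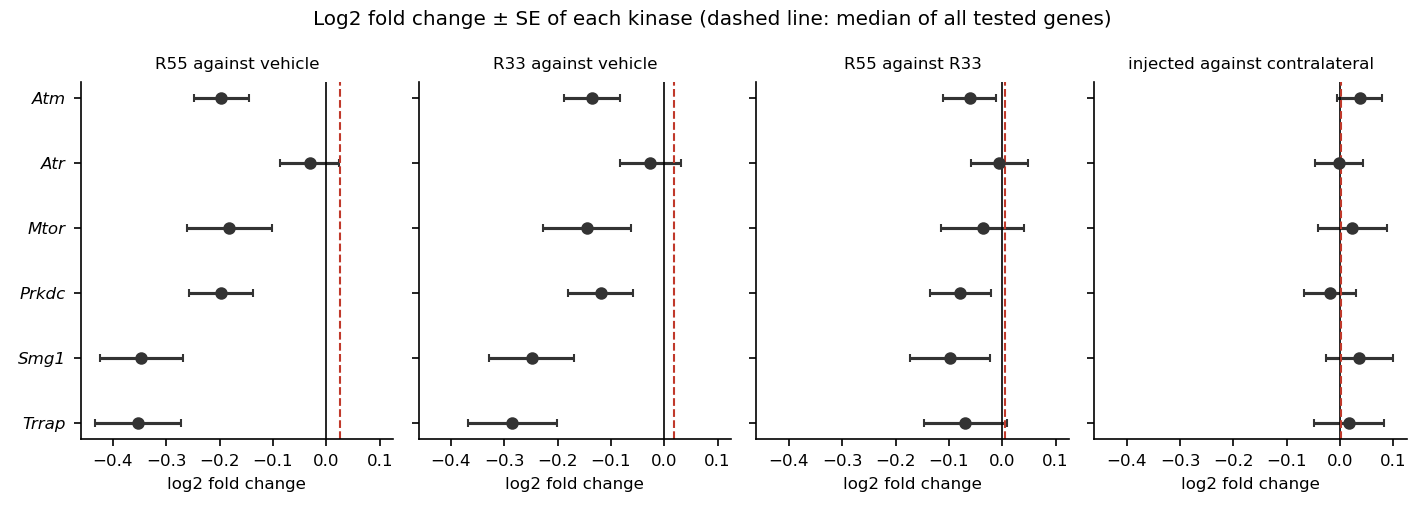
Log2 fold change of each kinase (points) with its SE (bars) in 4 contrasts of the limma fit on log2(FPKM + 1); the dashed line is the median of all tested genes. Trrap and Smg1 lie farthest to the left against vehicle, at -0.35 after R55, and all 6 kinases lie within 0.10 of 0 for R55 against R33 and within 0.04 for injected against contralateral.

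Mouse labels had 1 or 2 letters, which the labels do not explain, and both kinds occurred in each treatment. Among mice with a 1-letter label the members' median difference from vehicle was -0.21 for R55 (3 mice against 3) and -0.07 for R33 (3 against 3). Among those with 2 letters it was -0.19 for R55 and -0.27 for R33, each with 2 mice against a single vehicle mouse. For R33 the larger value thus came from the mice that include AD.

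Gene length moved with these differences. After either drug, the median log2 fold change of tested genes was above 0 in length classes from 339 to 4095 bp and below 0 in those from 4096 to 21590 bp. The 725 tested genes of at least 8074 bp, the length of the shortest member, had a median log2 fold change of -0.14 after R55 and -0.11 after R33, and 89.4% and 85.8% of them were lower, against 39.8% and 42.5% of all tested genes. Genes of 7133 to 9410 bp, the class of Atr and Mtor, had a median of -0.08 and quartiles of -0.15 and -0.03 after R55. Atr was thus near the upper quartile of its class and Mtor below the lower one. In the class of Atm, 9413 to 12382 bp, the median was -0.16, and in that of Prkdc, Smg1 and Trrap, 12429 to 16263 bp, it was -0.23 with quartiles of -0.34 and -0.13. Prkdc was higher than that median, and Smg1 and Trrap were just past the lower quartile.

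With a length trend removed from each library, the members' median differences from vehicle became smaller. After R55 the members were at -0.16 for Trrap, -0.10 for Smg1, -0.07 for Mtor, -0.01 for Atm and 0.07 for Atr. Prkdc was at 0.00 to 2 decimals, and the median was -0.04. After R33 the median was -0.02, from -0.13 for Trrap to 0.05 for Atr. The trend and the length classes used log2(FPKM + 1), which shrinks the changes of Atm, Prkdc and Atr. With voom and no trend removed, Atm and Prkdc were at -0.32 and -0.33 after R55. Values of these 3 genes without the trend can therefore be too high, and by how much was not tested. The slope of log2 values per doubling of gene length averaged 0.031 ± 0.025 in vehicle mice (SD, n = 4), -0.0048 ± 0.079 in R33 mice (n = 5) and -0.018 ± 0.033 in R55 mice (n = 5). What set the slope was not tested.

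**Figure D3:**
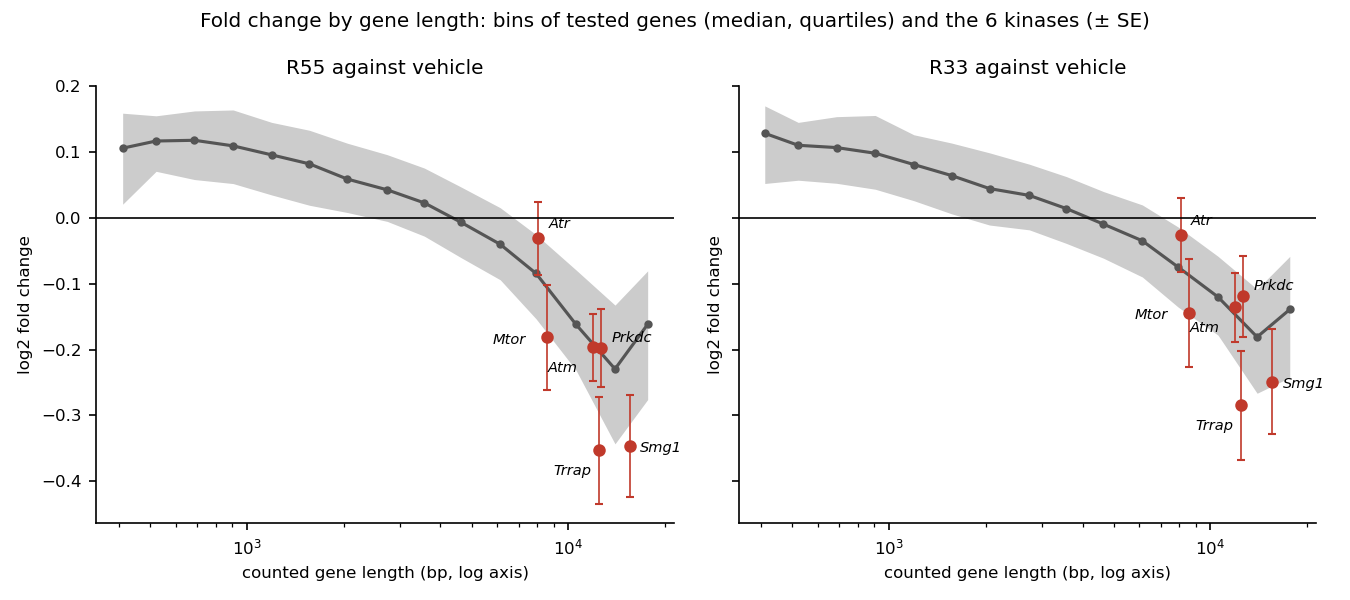
Log2 fold change against vehicle by counted gene length (log axis) for R55 and R33: the grey line and band give the median and quartiles of tested genes of 339 bp or longer in length classes of at least 20 genes, and red points the 6 kinases with their SE. The median falls to -0.23 after R55 in the class of Prkdc, Smg1 and Trrap, where Prkdc lies above it and the other two below.

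R55 and R33, injected at the same concentration and sampled at the same time, were compared directly. Both drugs' libraries also entered the contrasts by which the family was proposed, so this comparison is not independent of the choice of genes. All 6 kinases had a lower fitted level after R55 than after R33. So did 46.6% of all tested genes and 74.2% of the 725 genes of at least 8074 bp. The members' median was -0.06, and -0.02 with the length trend removed. The members' differences had 95% intervals that all included 0. On the log2 scale they were -0.10 for Smg1 (95% interval -0.25 to 0.06), -0.08 for Prkdc (-0.20 to 0.04), -0.07 for Trrap (-0.23 to 0.09), -0.06 for Atm (-0.16 to 0.04), -0.04 for Mtor (-0.20 to 0.12) and -0.01 for Atr (-0.12 to 0.10). None of the 6 was called in the limma fit (smallest adjusted p = 0.9998), with 0% of all tested genes called, and 0 of 6 reached an unadjusted p-value under 0.05, against 1.15% of all genes. These intervals still admit a level up to 0.25 lower on the log2 scale after R55 for Smg1. Without mouse AD the 6 differences ran from -0.15 to -0.04, and 2 of the 6 passed 0.05 before adjustment, when 10.3% of all tested genes did.

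Whether the injected side differed from the other side was asked by comparing hemispheres over all treatments. No member was called (0% of all genes), 0 of 6 had an unadjusted p-value under 0.05 (3.47% of all genes), and the differences ran from -0.02 for Prkdc to 0.04 for Atm. The 95% intervals were -0.05 to 0.12 for Atm, -0.09 to 0.09 for Atr, -0.11 to 0.16 for Mtor, -0.12 to 0.08 for Prkdc, -0.09 to 0.17 for Smg1 and -0.12 to 0.15 for Trrap. Within the 13 mice with both hemispheres, the injected side was the higher in 6 mice for Atm, Mtor and Trrap and in 7 for Atr, Prkdc and Smg1. With mouse as a block, 0 of 6 had an unadjusted p-value under 0.05 (6.13% of all genes), and adjusted p-values from limma were 0.954 to 0.997.

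The largest differences between hemispheres came from a few mice. In R55 mouse Q the contralateral side measured 3.13 FPKM for Smg1 against 5.42 FPKM on the injected side, and 6.12 against 9.06 FPKM for Trrap. Mtor there measured 10.8 against 15.2 FPKM and Atm 1.16 against 1.64 FPKM, the largest such difference of any mouse for all 4 genes. The contralateral library of Q is a library whose values fell with length. In R55 mouse AB and R33 mouse O, as in Q, all 6 kinases were higher on the injected side. In vehicle mouse M all 6 were lower on the injected side, and over the 4 vehicle mice Atm and Atr were higher there in none, Prkdc, Smg1 and Trrap in 1 and Mtor in 2.

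**Figure D4:**
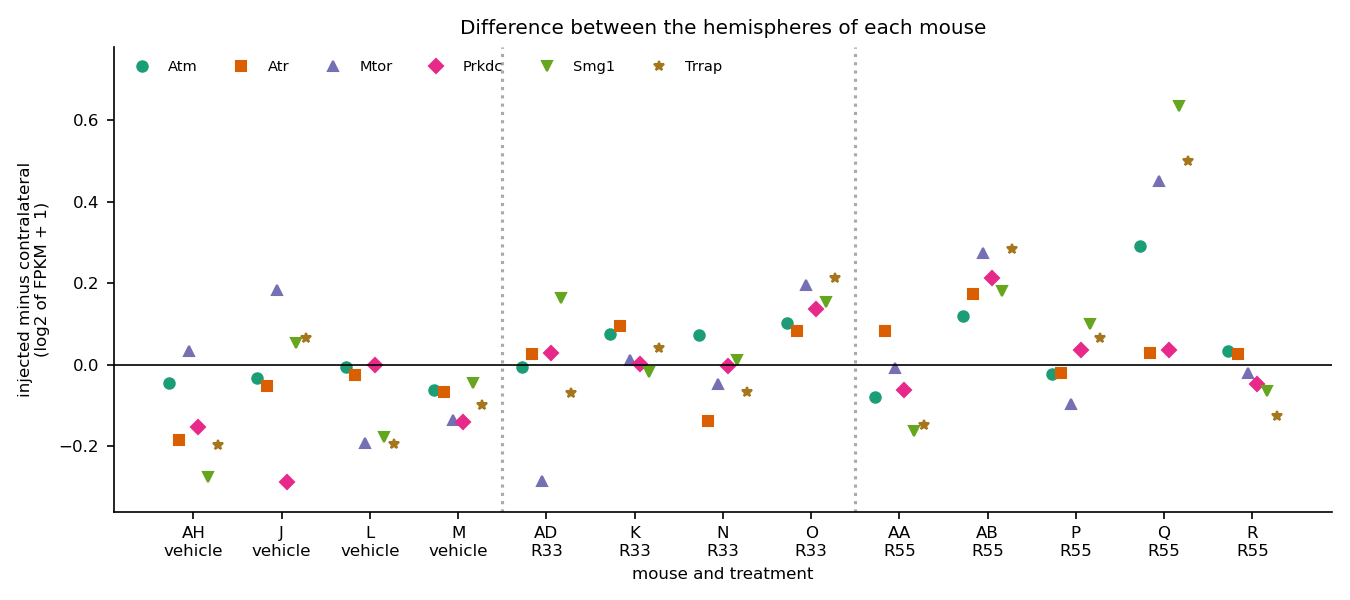
Injected minus contralateral level (log2 of FPKM + 1) of each kinase in the 13 mice with both hemispheres, grouped by treatment; points above 0 are higher on the injected side. Mouse Q reaches 0.64 for Smg1, and the points of vehicle mouse M all lie below 0.

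The drug differences were therefore also taken within each hemisphere. After R55 the members' median was -0.27 on the contralateral side (all 6 lower) and -0.13 on the injected side (5 lower, Atr higher at 0.04). Smg1 was at -0.47 (SE 0.13) on the contralateral and -0.22 (SE 0.081) on the injected side, and Trrap at -0.46 (SE 0.12) and -0.24 (SE 0.11). Without mouse Q the contralateral median was -0.25, with Smg1 at -0.35 (SE 0.092) and Trrap at -0.40 (SE 0.12), and the injected median was -0.15. After R33 the medians were -0.20 on the contralateral and -0.12 on the injected side, and -0.14 and -0.04 without mouse AD. Atm and Smg1 of R55 mice did not overlap with vehicle on either side, while Prkdc and Trrap did not overlap on the contralateral side alone. Every R55 library was below every vehicle library for 0.578% of all tested genes on the injected side and for 1.36% on the contralateral side. The difference of the R55 effect between hemispheres was fitted as an interaction, with the libraries of a mouse taken as separate samples. It ran from 0.11 for Atm to 0.25 for Smg1 (95% interval -0.07 to 0.56). Without mouse Q it ran from 0.05 for Atm to 0.18 for Prkdc, with Smg1 at 0.12 (-0.13 to 0.38). That of R33 ran from -0.02 for Mtor to 0.18 for Prkdc, and from 0.03 to 0.16 without mouse AD. The 725 tested genes of at least 8074 bp had medians of -0.22 on the contralateral and -0.06 on the injected side after R55. Their median R55 interaction was 0.15, with 12.4% of them below 0 against 58.3% of all tested genes. The members' median was 0.16, and 0.02 with the length trend removed. For R33 the median interaction was 0.01 in the 725 genes and 0.11 in the members, or 0.10 with the trend removed. In that limma fit 0 of 6 members were called for either interaction (adjusted p of at least 0.999), with 0% of all genes called. With mouse as a block, which keeps the pairing, 0 of the 12976 tested genes were called for either interaction. The smallest adjusted p over all of them was 0.81 for R55 (limma). A difference between the sides was thus not shown.

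Levels of the members went together across libraries to different degrees. Treatment was not removed, so the differences from vehicle by which the family was proposed are part of these correlations. Over the 27 libraries, which share mice, depth and the length slope described above, the Pearson correlation of log2 values was 0.86 between Mtor and Trrap, 0.85 between Atm and Smg1, and 0.83 between Smg1 and Trrap. It was lowest for Atr, at 0.36 with Mtor and 0.39 with Smg1. With the length trend removed, Mtor and Trrap stood at 0.60 and Atm and Prkdc at 0.70, while Atm and Trrap fell to 0.06 and Atm and Mtor to -0.35.

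The genes outside the family most like each member were mostly long as well. For Atm they were Mycbp2 (Pearson r = 0.91 over 27 libraries), Vps13c (0.90) and Kmt2c (0.89), with counted lengths of 13678 to 16819 bp, and these values dropped to between 0.08 and 0.29 without the length trend. Prkdc was most like Fat1 (0.83), Cacna1e (0.82) and Tenm1 (0.81), which fell to between -0.05 and 0.20. Smg1 was most like Macf1 (0.90), Mycbp2 (0.89) and Birc6 (0.88), at 0.56 to 0.75 without the trend. Trrap was most like Lrp1b (0.93), Vps13d (0.92) and Vps13b (0.92), at 0.64 to 0.73 without it. Mtor was nearest to Prpf8 (0.95), a spliceosome protein, and to Gtf3c1 (0.93), and here 0.82 to 0.84 was left without the trend. Atr was nearest to Zfp72 (0.81), Zfp518a (0.77) and Gtpbp8 (0.77), the last of them a gene of 1304 bp. Without the trend its correlations with them were 0.29, 0.50 and -0.28, in the same order. All these values are descriptions of the same libraries, with treatment not removed. Those of Atm, Prkdc and Atr without the trend carry the limit given above for these genes.

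Partners, inputs and targets of the kinases were taken from 9 lists with 131 tested genes. None of the 131 was called in any of the 4 contrasts. Values below 0 after R55 were found for 38 of the 131, against 39.8% of all tested genes. After R55, 4 were lower and 9 higher at an unadjusted p-value under 0.05 (3.74% and 4.71% of all tested genes), and their median was 0.04, against 0.03 over all genes. After R33 the counts were 3 and 5 (2.68% and 3.19%) with a median of 0.02. Among the lists, 5 genes of ATM and ATR signalling (Atrip, Chek1, Chek2, Clspn and Brca1), 1 of end joining (Dclre1c) and 2 p53 targets (Eda2r and Tnfrsf10b) were under the level filter.

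Partners of mTOR in its complexes had a median of 0.04 after R55, with 2 of 8 lower. Rictor, the defining subunit of mTORC2 and a gene of 9313 bp, was at -0.18 (SE 0.090), and Akt1s1, an inhibitor of mTORC1, at 0.12 (SE 0.066). The TTI1-TELO2-TTI2 and R2TP chaperones that assemble all kinases of this family were 7 genes of shorter length (median 2260 bp). All 7 had values above 0 after R55, with a median of 0.07, from which Rpap3 stood at 0.12 (SE 0.064) and Pih1d1 at 0.12 (SE 0.11). Of all tested genes 39.8% were below 0, and those of 1783 to 2352 bp had a median of 0.06 and a lower quartile of 0.01. None of the 7 had an unadjusted p-value under 0.05 (4.71% of all tested genes were higher at that level).

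Of 29 inputs and outputs of mTORC1, 11 were lower and 18 higher after R55, with a median of 0.07. Tfeb, the transcription factor of lysosomal genes that mTORC1 holds in the cytosol, was at 0.22 (SE 0.10) and Lamtor5, a subunit of the lysosomal Ragulator complex, at 0.18 (SE 0.098). Between the hemispheres Rps6kb2, a ribosomal S6 kinase, was at -0.29 (SE 0.11) on the injected side and Rragd, a Rag GTPase, at 0.11 (SE 0.092), neither of them called (adjusted p = 0.9999 for each, limma). For Deptor and Prr5l, partners of mTOR, the hemisphere differences were 0.08 (SE 0.11) and 0.09 (SE 0.12).

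ATM and ATR signalling had a median of 0.06 after R55, with 3 of 15 lower. Trp53bp1, which binds chromatin at breaks and is 9624 bp long, was at -0.18 (SE 0.071), and Etaa1, an activator of ATR, at 0.11 (SE 0.059). On the injected side Topbp1, another activator of ATR, was at 0.10 (SE 0.042) and Trp53, which encodes p53, at 0.11 (SE 0.064). Of 8 end-joining genes 1 was lower after R55, and Xrcc6 and Xrcc5, which encode the Ku proteins that recruit DNA-PK, were at 0.17 (SE 0.059) and 0.12 (SE 0.064). Xrcc6 was at 0.09 (SE 0.048) and Paxx, another end-joining factor, at -0.12 (SE 0.065) between the hemispheres. Among 13 targets of p53, Btg2 was at 0.45 (SE 0.19) and Gadd45a at 0.30 (SE 0.13) after R55, and 4 of the 13 were higher at an unadjusted p-value under 0.05, beside 4.71% of all tested genes. Btg2 at -0.17 (SE 0.15) and Cdkn1a, the cell cycle inhibitor, at 0.15 (SE 0.13) had the largest hemisphere differences of that list.

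The other factors of nonsense-mediated decay, 16 genes, had a median of 0.03 after R55 with 4 lower. Magoh and Rbm8a, which form part of the exon junction complex, were both at 0.12 (SE 0.11 and 0.066). Between the hemispheres Magoh was at -0.09 (SE 0.088) and Upf2 at 0.08 (SE 0.050). Of 7 transcripts known to be degraded by this pathway, 6 had values above 0 after R55, where 39.8% of all tested genes were below 0. Their median was 0.06 and their median length 620 bp, and tested genes of 589 to 775 bp had a median of 0.12. Gadd45b was at 0.21 (SE 0.095) and Atf4 at 0.17 (SE 0.088). The host genes Snhg12 and Snhg1 were at -0.11 (SE 0.087) and -0.10 (SE 0.13) on the injected side. The acetyltransferase complexes built on TRRAP, 29 genes, had a median of 0.01 after R55. Ep400, the ATPase of the TIP60 complex and a gene of 10798 bp, was at -0.30 (SE 0.081) and Actl6a, an actin-like subunit, at 0.15 (SE 0.075). Mrgbp and Supt20 were at -0.12 (SE 0.056) and -0.10 (SE 0.078) between the hemispheres.

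**Figure D5:**
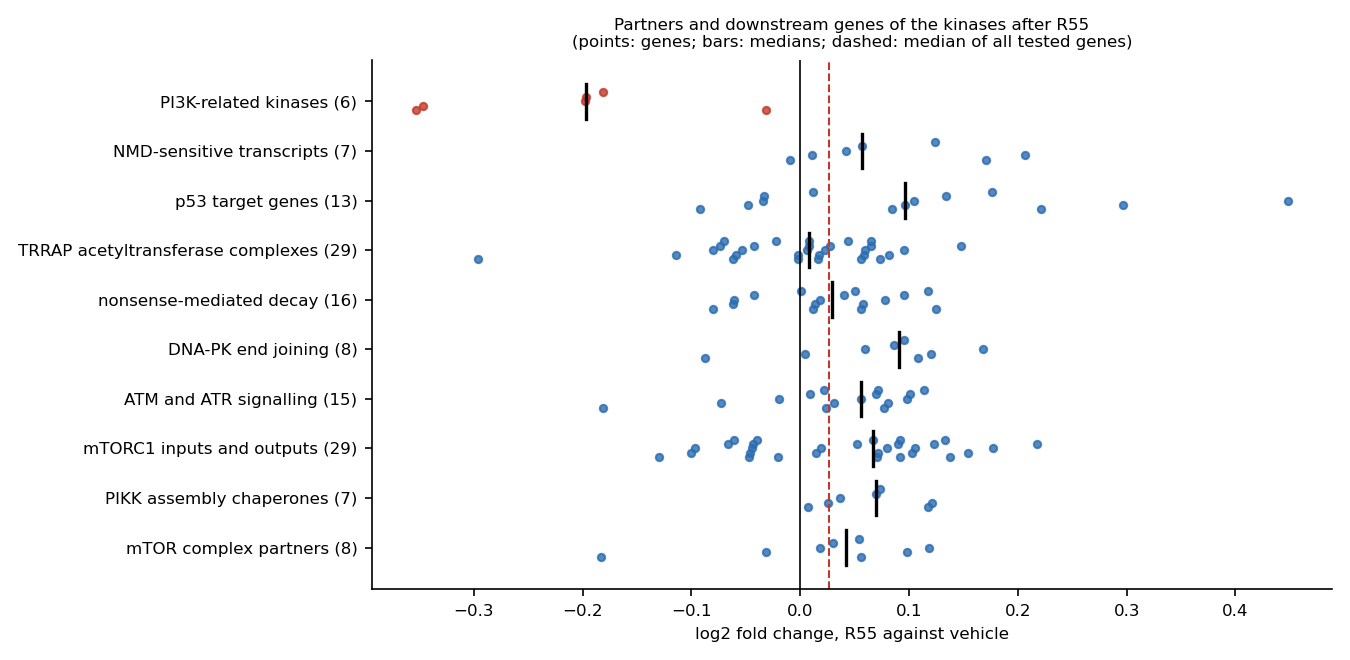
Log2 fold change of R55 against vehicle for the tested genes of 9 lists (blue points, number tested in brackets) and for the 6 kinases (red points); black bars are medians and the dashed line the median of all tested genes. The kinases have a median of -0.20, and the list medians lie between 0.01 and 0.10.

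The members differ in their neighbours. Npat and Mcm4, chosen after their values were seen, start head to head with a member on the opposite strand. Npat, which activates histone genes, starts 10 bp from Atm, and measured 3.51 ± 0.34 FPKM in vehicle, 3.33 ± 0.63 FPKM in R33 and 3.23 ± 0.43 FPKM in R55 mice (SD, n = 4, 5 and 5). Its R55 difference was -0.09 (SE 0.087), against -0.20 for Atm, and its counted length was 7347 bp. Mcm4, a subunit of the replicative helicase, starts 433 bp from Prkdc and measured 3.20 ± 0.23 FPKM in vehicle, 3.60 ± 0.44 FPKM in R33 and 3.77 ± 0.46 FPKM in R55 mice, a difference of 0.18 (SE 0.075) after R55 where Prkdc was at -0.20. Its counted length was 3589 bp against 12674 bp for Prkdc. Genes annotated over a member on the opposite strand were present for Atm, Atr, Mtor and Smg1. Of these, Angptl7 over Mtor and 1700065D16Rik over Atr were in the table, with means of 0.15 and 0.09 FPKM, and the others were not quantified there. Whether fragments were counted by strand is not given in the sources used here, so fragments of these opposite-strand genes and those of the kinases cannot be told apart where exons overlap. Genes annotated over a member on its own strand were present for Atr, Mtor, Prkdc, Smg1 and Trrap, and none was in the table. Counting by strand would not separate their fragments from those of the kinases.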

How the data were processed

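Total RNA of cortex blocks was made into stranded mRNA libraries and sequenced as paired-end reads by the authors, who aligned them to GRCm39 with HISAT2 and deposited FPKM. The counting tool, its annotation and its strand setting are not given in the sources used here. The 27 listed libraries were used and the other 5 of the table were not. All values were whole multiples of 1 fragment within 0.01, so fragments and counted lengths were recovered. Depth was 15932196 to 38077026 fragments, with a median of 27441308.

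Genes averaging 1 FPKM or more were fitted on log2(FPKM + 1) with limma 3.58.1 (R 4.3.3, intensity trend), with treatment and hemisphere as factors and Benjamini-Hochberg adjustment over 12976 genes, called at 0.05. The libraries of a mouse enter as separate samples. Mouse labels pair the hemispheres: deviations from group means correlated at 0.394 on average within 13 mice and at -0.106 between mice. Length trends were removed by lowess (span 0.3). Alternatives were other size factors, filters and pseudocounts, voom, the correlation within mice, 1 value per mouse, mouse as a block, the label series, fewer treatments and each mouse left out. Leaving out the 2 libraries with the steepest length slopes was chosen after seeing the data. The fits were tested on simulated libraries without correlation within mice and with changes larger than those of the members. That test does not give error rates for these data. Python 3.11.15 with pandas 2.3.3 and matplotlib 3.10.9 made tables and plots.

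The members and all lists were chosen with earlier results of these data known. Named genes were the 6 members, any list gene called, the 2 genes of each list with the largest differences for R55 against vehicle and between hemispheres, and the 3 genes most correlated with each member, of which 1 is not reported here. The p-values, SEs and intervals of the main fit take the libraries of a mouse as separate samples. They therefore do not measure the spread between mice alone.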

Additional observations from a re-analysis of the deposited data

Results flagged for a closer look

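Smg1 was the member with a library far from the others of its group by Dixon's criterion, in 2 of 36 groups tested, where chance gives about 1 in 20. Among the 4 contralateral libraries of R33 mice, that of mouse AD measured 4.50 FPKM, below the other 3 at 5.62 to 5.78 FPKM. Among the 4 contralateral libraries of vehicle mice, that of mouse M measured 6.46 FPKM, below the others at 7.19 to 7.27 FPKM, and it was still above all contralateral libraries of drug-treated mice.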

How the results depend on the processing

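The count of called members changed in 1 of the 10 contrasts and under 1 setting. For R55 against vehicle it was 0 of 6, ran from 0 to 3 with single mice left out, and was 3 without R33 mouse AD, which are Atm, Smg1 and Trrap. With the correlation within mice modelled (0.347) 0 of 6 were called. The mouse as a block changed no call, and under it the hemisphere difference of Atr was 0.0023 in place of -0.0014.

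For R55 against R33 and between hemispheres, signs turned for small, uncalled differences. For Atr, R55 against R33 was 0.012 with the length trend removed, 0.015 when the correlation within mice was modelled as well, 0.0033 with the label series as a covariate and 0.0012 with voom, and -0.037 to 0.035 with mice left out. For Mtor it was -0.12 to 0.013 with mice left out. Between hemispheres Atr was 0.0046 with the label series and 0.0018 without the 2 steep libraries, and Smg1 -0.0046 without those. Trrap was -0.014 with the length trend removed, -0.0105 with the correlation within mice added and -0.0050 with the block added. With mice left out the hemisphere differences ran from -0.016 to 0.013 for Atr, -0.011 to 0.041 for Mtor, -0.037 to 0.0031 for Prkdc, -0.013 to 0.061 for Smg1 and -0.023 to 0.033 for Trrap.

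Against vehicle, 23 member values moved by more than the spread between mice under the pseudocount of 0.1, voom or removal of the length trend. The last of these turned the sign of Atr after R55 and of Atm, Atr and Prkdc after R33. Leaving out vehicle mouse J turned the sign of Atr after both drugs, to 0.015 for R55 and 0.020 for R33, and leaving out mouse AD turned it after R33, to 0.0060. Depth limits Atr most, with a median of 304 fragments.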
